A study of Mus musculus with 4 samples.

Results

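This report describes 10 transcription factors that set the identity of B cells and plasma cells: Bcl6, Prdm1, Irf4, Irf8, Pax5, Bach2, Spib, Ebf1, Pou2af1 and Ikzf3. They were taken as every probe set whose platform annotation names one of these genes and no other, which gave 22 of the 45037 probe sets tested and 10 of 18193 genes. RNA came from 4 subclones of 36-65, a mouse hybridoma, that is, the continuously growing product of a fusion between an antibody-forming cell and a tumour of plasma cells. Subclones L25 and L27 (low switching replicates 1 and 2) change antibody class at low frequencies in culture, and H23 and H27 (high switching replicates 1 and 2) do so spontaneously at high frequencies. All 4 were grown in medium with 10% fetal calf serum, and the labels give no treatment or genetic change. Each subclone is 1 clone measured on 1 array, so a p-value here reflects the spread among 4 arrays alone, and whether the subclones of a class arose independently is not stated.

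The 4 arrays had median intensities from 38.2 to 39.4. Of 9 measured markers of B cells and plasma cells, 8 lay above the median probe set on all 4 arrays, among them Jchain (log2 intensity 14.35 to 14.49), Sdc1 (12.44 to 12.66), Mzb1 (12.99 to 13.61) and Ms4a1 (11.24 to 11.66). Cd79a, a subunit of the B cell receptor, read 5.04 to 5.25, below the median probe set on every array, whereas its partner Cd79b read 11.01 to 11.85. Jchain, Sdc1 and Mzb1 belong to antibody-secreting cells, and Ms4a1 (CD20) to B cells before that stage. The level of the hybridization controls, RNAs added to each sample in known amounts, divides the arrays across the classes, with mean log2 intensities of 11.07 on L25 and 10.98 on H27 against 10.45 on L27 and 10.49 on H23. Differences between arrays of like control level are given below, each from a single array of either class. The part of the control level in the class differences was not tested.

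A B cell keeps its identity through Pax5 and Ebf1, which activate B cell genes, with Bach2, Spib, Irf8 and Bcl6 holding back the secretory programme. Prdm1 encodes Blimp-1, the repressor that shuts down the B cell programme when a cell becomes a plasma cell, and high Irf4 promotes the same step. Bcl6 and Blimp-1 repress each other's genes. Pou2af1 (OBF-1) is a coactivator of octamer-binding factors, and Ikzf3 (Aiolos) is a zinc finger factor of the Ikaros family that is used by both B cells and plasma cells.

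Setting high against low switching subclones asks whether these factors differ between cells of the 2 switching classes. Bcl6 was higher in the high switching subclones on both of its probe sets, by 2.71-fold and 1.96-fold. No probe set of the other 9 genes passed the threshold in either direction. Prdm1 and the brighter Ikzf3 probe set had higher values on both high switching arrays than on both low switching arrays but missed the threshold, and Irf4, Pou2af1, Pax5, Bach2, Irf8 and Spib differed by 0.15 or less on the log2 scale on every probe set. Of the 10 genes, Ebf1 differed most between the subclones of a class.

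In numbers, 2 of 22 probe sets passed limma's test at an adjusted p under 0.05, both as higher, which is 9.09% beside 3.59% of all probe sets (1.50% as higher and 2.10% as lower). Both belong to 1 gene, so the share of the group rests on Bcl6. The median difference of the 22 was 0.11, beside 0.01 over all probe sets. The groups did not overlap on 9 of 22, or 40.9%, of which 6 were higher and 3 lower in high switching subclones. Over all probe sets 47.3% did not overlap, and 25.1% had both high switching arrays above both low switching arrays. An unadjusted p under 0.05 was found for 4 of 22, or 18.2%, beside 18.6% of all. On 15 of 22 probe sets the subclones of at least 1 class differed from each other by more than the class means did (68.2%, beside 64.1% of all), so the members as a group stood near the background, with Bcl6 apart. With 2 arrays in each class, 0.333 is the smallest two-sided p of an exact permutation test, so every call depends on limma's pooling of variances over probe sets.

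**Figure D1:**
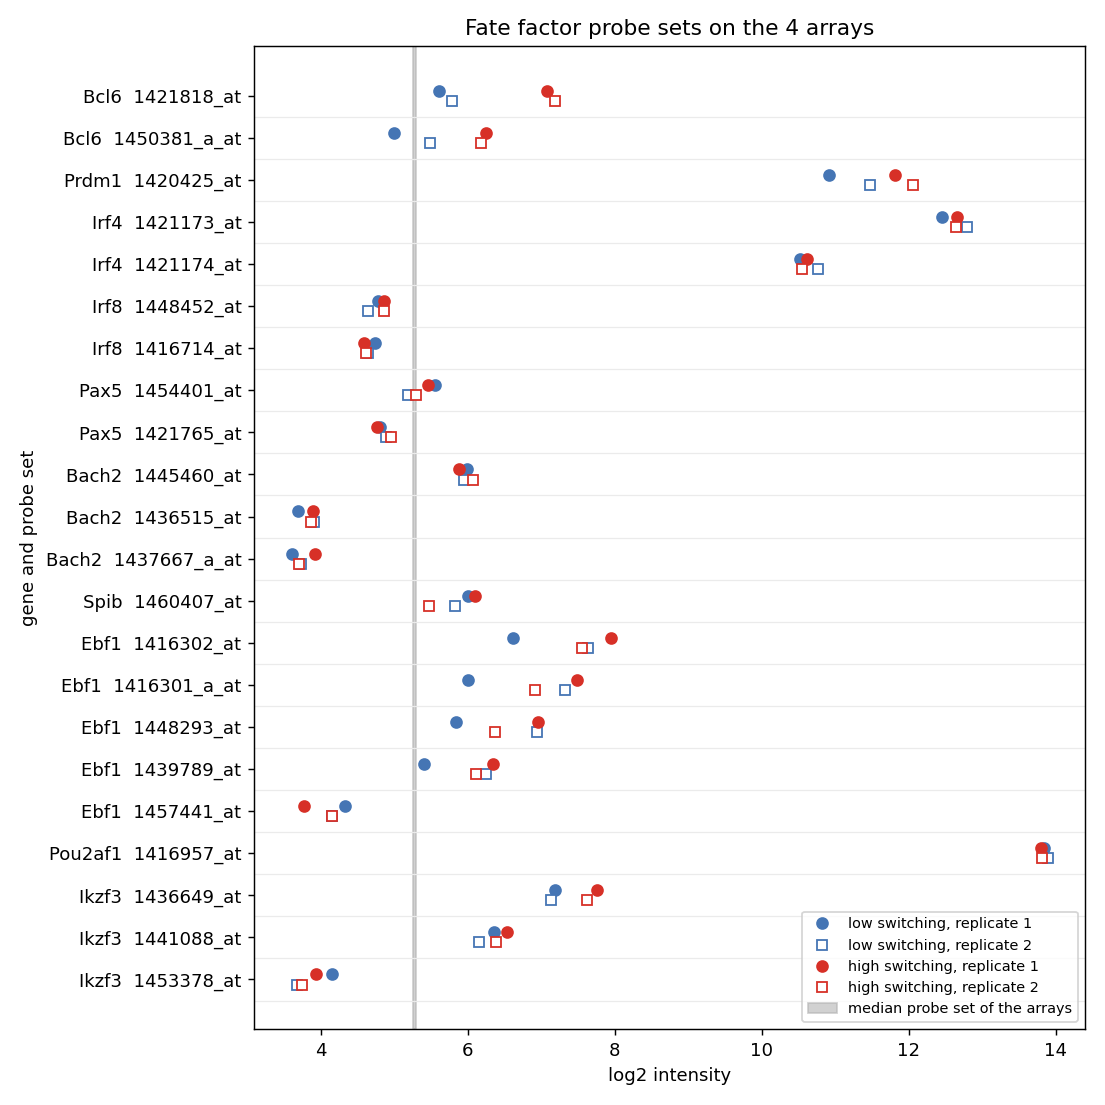
Log2 intensity (horizontal axis) of the 22 probe sets of the 10 fate factors, a row for each. Blue marks low switching and red high switching subclones, circles replicate 1 and squares replicate 2, and the grey band is the median probe set of the arrays (5.25 to 5.30). Both high switching arrays lie above both low switching arrays on 6 probe sets, as on 25.1% of all probe sets. They are those of Bcl6 and Prdm1, Ikzf3 1436649_at and 1441088_at, and Irf8 1448452_at. Low switching replicate 1 is the lowest array on 4 of 5 Ebf1 probe sets. Levels of different probe sets cannot be compared with each other.

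Bcl6 encodes a zinc finger repressor of germinal centre B cells, the cells that switch class and mutate their antibody genes. On probe set 1421818_at the low switching subclones had log2 intensities of 5.60 and 5.79 and the high switching subclones 7.08 and 7.18. The classes were well apart, with a smallest distance of 1.29 between any high and any low switching array against 0.18 and 0.11 within the classes. The difference was 1.44 ± 0.12 (moderated SE, 95% interval 1.14 to 1.73), with a limma adjusted p of 0.00587. By size of difference it ranked 114th among the 674 probe sets that were higher. The transcript lay near the middle of the arrays in low switching subclones, at the 54.5th and 56.8th percentile of probe sets, and at the 68.5th and 69.5th in high switching subclones. RMA, the authors' processing, compresses differences of dim probe sets, so the fold may be understated. Bcl6 is also singled out because it passed the threshold, which can overstate a fold. Neither was tested.

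The other Bcl6 probe set, 1450381_a_at, read 4.99 and 5.49 in low and 6.24 and 6.18 in high switching subclones. Here low switching replicate 1 lay below the median probe set and 0.49 below its partner, which widened the spread within the low class. The difference was 0.97 ± 0.18 (95% interval 0.54 to 1.40), with a limma adjusted p of 0.0445. The call of 1421818_at held when any single array was left out (1.34 to 1.53, limma adjusted p at most 0.0373). That of 1450381_a_at held in 1 of 4 such fits, the one without low switching replicate 2, and its difference was 0.72 without low switching replicate 1, 0.94 without high switching replicate 1 and 1.00 without high switching replicate 2. Between the arrays with brighter hybridization controls the Bcl6 difference was 1.58 and 1.19 on the 2 probe sets, and between those with dimmer controls 1.29 and 0.76. With the control level as a block, which leaves fewer degrees of freedom, both calls ended (limma adjusted p = 0.0646 and 0.108).

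RefSeq holds more than 1 transcription start for Bcl6, and the 250 bases before each are shown because Bcl6 was the only member past the threshold, beside those of Prdm1, the gene with which it shares mutual repression. The sequences are from assembly GRCm38.p6, read 5′ to 3′ on the strand of the gene, and capitals mark matches to the motifs searched. The first Bcl6 window is chr16:23988853-23989102, the second is chr16:23981284-23981533, and that of Prdm1 is chr10:44458749-44458998, all on the minus strand.
Bcl6 first start: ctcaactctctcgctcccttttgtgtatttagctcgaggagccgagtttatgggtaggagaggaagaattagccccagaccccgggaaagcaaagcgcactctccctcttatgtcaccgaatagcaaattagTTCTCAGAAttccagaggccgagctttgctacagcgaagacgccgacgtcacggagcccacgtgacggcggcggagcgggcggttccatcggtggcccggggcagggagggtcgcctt
Bcl6 second start: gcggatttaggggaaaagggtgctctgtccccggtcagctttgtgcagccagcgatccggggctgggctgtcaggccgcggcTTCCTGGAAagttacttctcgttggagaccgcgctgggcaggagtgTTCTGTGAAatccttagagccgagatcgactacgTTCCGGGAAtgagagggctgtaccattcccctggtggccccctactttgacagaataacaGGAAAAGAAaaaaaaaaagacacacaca
Prdm1: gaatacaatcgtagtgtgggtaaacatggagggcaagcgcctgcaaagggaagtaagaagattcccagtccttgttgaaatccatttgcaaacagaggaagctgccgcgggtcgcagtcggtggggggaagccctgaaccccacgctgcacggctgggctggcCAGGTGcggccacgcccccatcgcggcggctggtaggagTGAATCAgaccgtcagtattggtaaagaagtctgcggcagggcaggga

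The motifs were searched on both strands, and motifs may share bases, although none do in these 3 windows. The palindrome TTCNNNGAA, the core that Bcl6 and STAT proteins recognise, was found 1 time in the first Bcl6 window and 3 times in the second, and 7.02% of 32851 windows of that length hold it at least once. The composite Ets and IRF motif GGAANNGAA was found 1 time, 28 to 20 bases before the second start, and is held by 6.99% of windows. Of the 11 motifs, the Prdm1 window held the AP-1 motif TGANTCA (6.75% of windows) 48 to 42 bases before the start and an E box, CANCTG (44.8%). Neither Bcl6 window held GAAANNGAA (IRF element, 7.13%), AGGAAGT (Ets and PU.1, 7.69%), ATGCAAAT (octamer, 1.60%), GCTGAGTCA (Bach2 and Maf, 0.39%), CCCNNGGG (Ebf1, 11.8%), GGGANTTCC (NF-kappaB, 1.43%) or the start site element TATAAA (12.4%). Windows were found for 9 of the 10 genes, Ikzf3 being the one without. TTCNNNGAA was also found in windows of Irf8 and Bach2, genes with no difference past the threshold. A match describes the letters and does not show that a factor binds.

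Prdm1 has a single probe set, 1420425_at, which was bright in every subclone. It read 10.91 and 11.48 in low and 11.82 and 12.06 in high switching subclones. The classes did not overlap, but their nearest arrays were 0.34 apart while the low switching subclones were 0.57 apart. The difference was 0.74 ± 0.20 (95% interval 0.25 to 1.24), and the limma adjusted p was 0.119 (unadjusted 0.0104). It ranged from 0.46 without low switching replicate 1 to 1.03 without low switching replicate 2 and did not pass in any of these fits. Between arrays of like control level it was 1.15 and 0.34. Prdm1 thus had higher rather than lower values on the arrays where its antagonist Bcl6 was higher, by a difference that missed the threshold.

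Irf4 encodes a factor that B cells need at a high level to become plasma cells. Its probe set 1421173_at read 12.45 and 12.79 in low and 12.66 and 12.65 in high switching subclones, and 1421174_at read 10.52 and 10.77 against 10.62 and 10.55. On both, the high switching arrays lay between the low switching arrays, so the classes overlapped. The differences were 0.03 ± 0.14 (95% interval -0.31 to 0.38) and -0.06 ± 0.13 (-0.37 to 0.25), with a limma adjusted p of 0.955 and 0.88. The sign of each turned when 1 low switching array was left out.

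Pou2af1, the octamer coactivator, was among the brightest probe sets of every array, at the 99.5th percentile. It read 13.84 and 13.89 in low and 13.80 and 13.81 in high switching subclones. The classes did not overlap, yet all 4 arrays lay within 0.09 of each other, and the difference of -0.06 ± 0.10 (95% interval -0.31 to 0.20) did not pass (limma adjusted p = 0.856).

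Ikzf3 was measured by 3 probe sets of different level. The brightest, 1436649_at, read 7.19 and 7.13 in low and 7.75 and 7.62 in high switching subclones. Each class was tight, with 0.06 and 0.14 between its subclones, and the nearest arrays of the classes were 0.43 apart. The difference was 0.53 ± 0.11 (95% interval 0.26 to 0.80, limma adjusted p = 0.0636), the nearest to the threshold of those that missed it. It passed with 1 probe set for each gene (limma adjusted p = 0.0494), with only probe sets of a mean log2 of at least 6 (0.0481) and with quantile normalization applied again (0.048), and did not pass in the other 8 alternatives of processing or with any array left out. Probe set 1441088_at read 6.35 and 6.15 against 6.53 and 6.39, a difference of 0.21 ± 0.13. On 1453378_at, which lay below the median probe set on every array, the classes overlapped and the difference was -0.07 ± 0.18. The size of the Ikzf3 difference thus depended on the probe set.

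**Figure D2:**
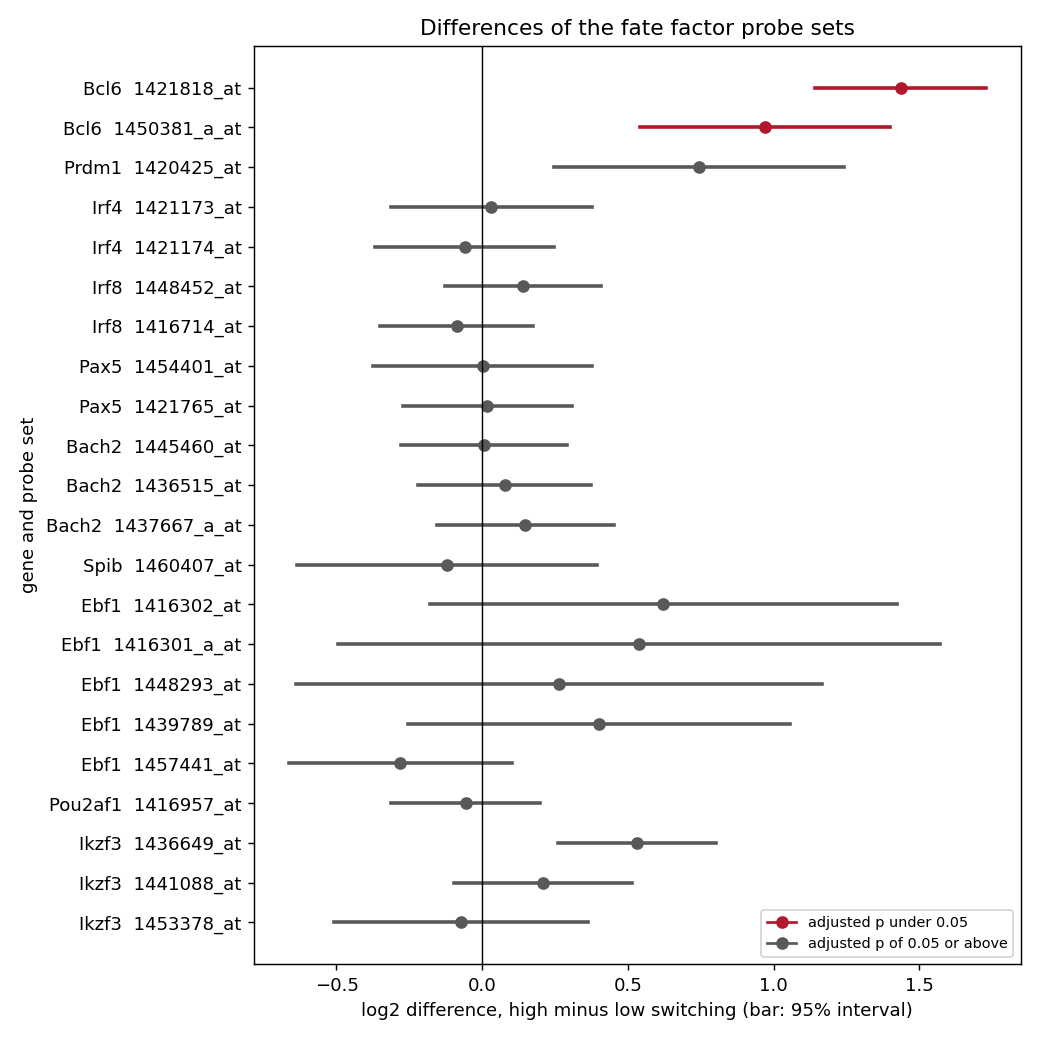
Log2 difference of high minus low switching subclones (point, horizontal axis) with its 95% interval from limma's moderated SE (bar) for each of the 22 probe sets, over 2 arrays in each class. Red marks the 2 Bcl6 probe sets with an adjusted p under 0.05, at 1.44 and 0.97. The intervals of Prdm1 and of Ikzf3 1436649_at also lie above 0, and those of the Ebf1 probe sets are among the widest.

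The factors that hold a cell in the B cell stage, apart from Bcl6 and Ebf1, showed small differences. Pax5, which commits a cell to the B lineage, read 5.55 and 5.19 in low against 5.46 and 5.29 in high switching subclones on 1454401_at, close to the median probe set. On 1421765_at, below the median on all arrays, it read 4.80 and 4.88 against 4.76 and 4.96. Both differences were within 0.02 of 0, with 95% intervals of -0.37 to 0.38 and -0.27 to 0.31, and the classes overlapped. Irf8, a factor of B cells and myeloid cells, lay below the median probe set on every array, at 4.78 and 4.64 against 4.85 and 4.85 on 1448452_at, and at 4.74 and 4.64 against 4.59 and 4.61 on 1416714_at. The classes did not overlap on either, but the differences of 0.14 ± 0.11 and -0.09 ± 0.11 had opposite signs and neither passed. For Pax5 and Irf8, intensities this low need not follow the amount of transcript, so a difference could be missed.

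Bach2 encodes a repressor that binds with small Maf proteins and delays plasma cell formation. On 1445460_at it read 5.99 and 5.95 in low and 5.88 and 6.07 in high switching subclones. The other Bach2 probe sets, 1436515_at and 1437667_a_at, were among the dimmest of the arrays, with all values between 3.60 and 3.92. The classes overlapped on all 3, and the differences were 0.01 ± 0.12, 0.08 ± 0.12 and 0.15 ± 0.12. Spib, an Ets factor of the B cell programme, read 5.99 and 5.82 against 6.10 and 5.48. High switching replicate 2 stood 0.62 below its partner, and the difference of -0.12 ± 0.21 (95% interval -0.64 to 0.40) turned to 0.19 without that array.

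Ebf1, which opens and activates B cell genes together with Pax5, differed more between the low switching subclones than between the class means on 4 of its 5 probe sets. Probe set 1416302_at read 6.62 and 7.64 in low and 7.95 and 7.55 in high switching subclones, and 1416301_a_at read 6.01 and 7.32 against 7.49 and 6.91. Low switching replicate 1 was the lowest array by 0.93 and 0.90, and the other 3 arrays lay within 0.39 and 0.58 of each other. Probe sets 1448293_at (5.84 and 6.94 against 6.95 and 6.37) and 1439789_at (5.40 and 6.24 against 6.34 and 6.11) showed the same order of low switching replicate 1 below the rest. The fifth probe set, 1457441_at, lay below the median of every array and did not show it (4.32 and 4.15 against 3.77 and 4.14).

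The difference between the low switching subclones was 1.02, 1.31, 1.10 and 0.84 on the first 4 Ebf1 probe sets, at the 99.5th to 99.9th percentile of the sizes over all probe sets, whose median was 0.13. Between the high switching subclones, replicate 2 was lower than replicate 1 by 0.39, 0.58, 0.58 and 0.23. In each class the lower array was thus the one with brighter hybridization controls, and the part of the control level was not tested. The class differences of 0.62 ± 0.33, 0.54 ± 0.42, 0.26 ± 0.37 and 0.40 ± 0.27 did not pass (limma adjusted p from 0.396 to 0.80). Between the arrays with brighter controls these differences were 0.93, 0.90, 0.52 and 0.70, and between those with dimmer controls 0.31, 0.17, 0.01 and 0.10. The dim probe set 1457441_at differed the other way, by -0.28 ± 0.16 with classes that did not overlap, and did not pass either (limma adjusted p = 0.423). Without low switching replicate 1 they were 0.11, -0.12, -0.28 and -0.02, and without low switching replicate 2 they were 1.13, 1.19, 0.81 and 0.82, none of which passed. Low switching replicate 1 was also the lowest array for both Bcl6 probe sets, Prdm1, both Irf4 probe sets and Bach2 1436515_at and 1437667_a_at. On the remaining member probe sets another array was the lowest. How often low switching replicate 1 was the lowest over all probe sets was not counted.

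**Figure D3:**
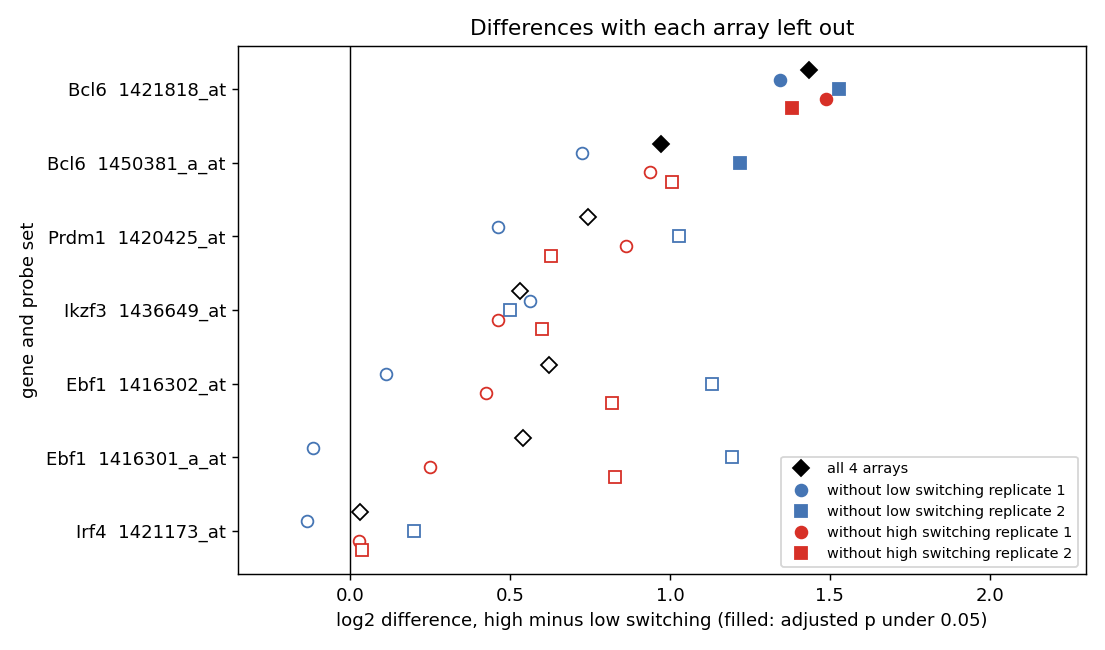
Log2 difference of high minus low switching subclones (horizontal axis) for 7 probe sets with all 4 arrays (black diamond) and with each array left out (blue, a low switching array; red, a high switching array; circles replicate 1, squares replicate 2). Filled symbols have a limma adjusted p under 0.05. Bcl6 1421818_at stays between 1.34 and 1.53 and filled throughout, while the Ebf1 probe set 1416301_a_at moves from -0.12 to 1.19.

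Genes near the members were set beside them, to show whether the stretch of chromosome around a member differed between the classes as a whole. The 20 neighbours of Bcl6 on chromosome 16 (10 on each side with a mean log2 of at least 7, gene order from GRCm38.p6) had a median difference of -0.21, and 0 passed as higher and 1 as lower. Bcl6 thus stood 1.64 above its neighbours, whose median lay near that of the 263 genes of that level on chromosome 16 (-0.27). Prdm1 on chromosome 10 stood 0.82 above a neighbour median of -0.07, Ikzf3 on chromosome 11 stood 0.58 above -0.05, and Ebf1, also on chromosome 11, 0.62 above 0.00. For the other 6 genes the neighbour medians ranged from -0.27 to 0.27, and the gene standing nearest to its neighbours was Pou2af1, 0.04 below them.

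Among genes with a mean log2 of at least 7, a level above that of Bcl6 itself, those whose values over the 4 arrays lay nearest to Bcl6 1421818_at, each centred on its own mean, were Cstf2t (chromosome 19), Tedc1 (chromosome 12) and Alkbh8 (chromosome 9). Their root mean square distances from Bcl6 were 0.076, 0.077 and 0.079 on the log2 scale over 4 arrays. Cstf2t, a factor of mRNA 3′ end formation, read 9.37 and 9.48 in low and 10.64 and 10.87 in high switching subclones. With 4 arrays such a match mostly records a similar class difference, of 1.33, 1.29 and 1.38 for these 3 genes.

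The relatives of the members were read from the same fit, with the brightest probe set standing for each gene. Of all 18193 genes so read, 2.04% passed as higher and 2.78% as lower, 4.82% in all. Of 25 measured paralogs, 0 rose and 2 fell. Ebf3, a close relative of Ebf1, read 9.52 and 9.39 in low and 5.93 and 7.41 in high switching subclones, a difference of -2.79 ± 0.44 (limma adjusted p = 0.0318). All 3 Ebf3 probe sets fell, and the high switching subclones differed from each other more than the low. Irf3, which drives the response to foreign nucleic acids, fell by 0.71 on the log2 scale, and 2 of its 4 probe sets passed. The call of Irf3 ended whichever array was left out, and that of Ebf3 held in 2 of 4 such fits.

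Among 21 genes listed as partners and corepressors of the members, 0 rose and 1 fell, the zinc finger gene Hivep1 (-0.77 ± 0.14). The Bcl6 corepressor gene Bcor (0.36 ± 0.12) and Hdac3, a histone deacetylase of corepressor complexes (-0.40 ± 0.11), did not pass. Mafk, a partner of Bach2, had a difference of -0.39 ± 0.12 and Batf, which acts with Irf4 and Irf8, one of 0.61 ± 0.15, neither past the threshold. The median difference of this list was -0.06 and that of the paralogs 0.00, beside 0.01 over all genes.

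Of 33 other transcription factors of B and plasma cells, 3 rose and 1 fell, with a median of 0.16. Fli1, an Ets factor, read 7.66 and 8.15 in low and 9.22 and 9.98 in high switching subclones (1.69 ± 0.28). Nfil3, a basic leucine zipper repressor, read 7.17 and 7.26 against 8.84 and 8.28 (1.34 ± 0.19), and Mef2b, a factor that activates Bcl6 in germinal centre cells, 12.10 and 12.43 against 13.07 and 12.99 (0.77 ± 0.14). Xbp1, the plasma cell factor that expands the secretory apparatus, read 13.33 and 13.24 against 12.45 and 12.71 (-0.71 ± 0.13, 3 of 4 probe sets). Limma adjusted p-values were 0.0355, 0.0257, 0.0467 and 0.0461. With 1 array left out, Fli1 passed in 1 of 4 fits, Nfil3 in 2, and Mef2b and Xbp1 in none.

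**Figure D4:**
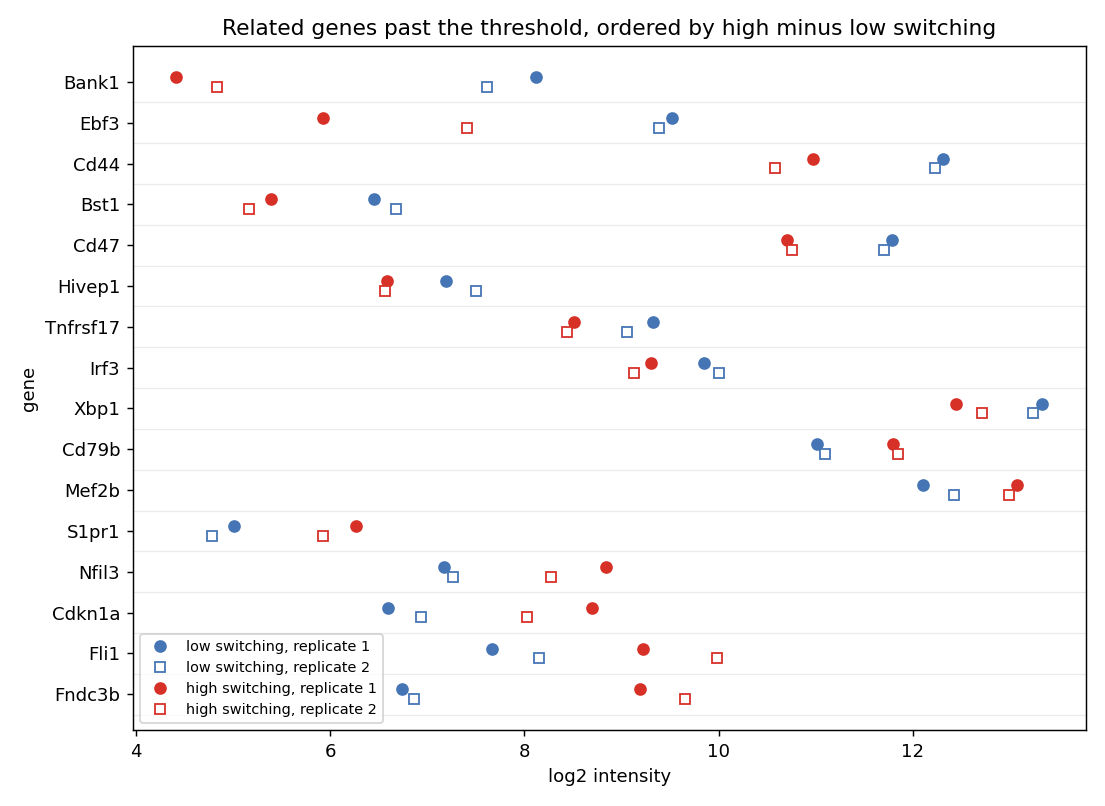
Log2 intensity (horizontal axis) on the 4 arrays of the 16 related genes past the threshold, other than Bcl6 and markers of other cell types, ordered from the largest fall to the largest rise in high switching subclones. Colours and symbols are blue for low and red for high switching, circles for replicate 1 and squares for replicate 2. Differences run from Bank1 at -3.24 to Fndc3b at 2.62. For all 16 the classes do not overlap, which their choice by the threshold on these same arrays makes likely. Over all probe sets 47.3% do not overlap.

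Few genes of any list of targets of the members passed, so no direction is read from their counts. Beside each list here and below stand 2.04% of all genes as higher and 2.78% as lower. Of 21 genes that Pax5 and Ebf1 activate, 1 rose and 2 fell (median 0.01). Cd79b rose by 0.77 ± 0.11. Bank1, a scaffold of B cell receptor signalling, fell (-3.24 ± 0.21). Bst1, an enzyme of the cell surface, also fell (-1.29 ± 0.14, 1 of 2 probe sets). Bank1 read 8.12 and 7.61 in low and 4.42 and 4.84 in high switching subclones, the latter below the median probe set. Of the 21 genes, 11 lay below the median probe set on all arrays, among them Cd22, which read 4.96 to 5.10. Of 16 that Pax5 represses, 0 rose and 2 fell (median -0.02), namely Cd47, the signal that restrains phagocytes (-1.01 ± 0.11, 3 of 5 probe sets), and Xbp1.

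Among 17 measured genes that Blimp-1 represses, a list that holds Bcl6, Pax5 and Spib themselves, 2 rose and 0 fell (median 0.04). They were Bcl6 and S1pr1, the receptor that guides lymphocytes out of tissue, at 5.01 and 4.78 in low and 6.27 and 5.93 in high switching subclones (1.20 ± 0.16). Of 21 plasma cell genes that Blimp-1 and Irf4 raise, 1 rose and 2 fell (median -0.07). Fndc3b, an endoplasmic reticulum protein, rose (2.62 ± 0.17), and Tnfrsf17, the survival receptor BCMA, fell (-0.71 ± 0.13) with Xbp1. Jchain (0.04 ± 0.11), Sdc1 (0.11 ± 0.12) and Ell2, an elongation factor of antibody secretion (-0.07 ± 0.16), did not pass.

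Of 21 measured genes that Bcl6 represses, 2 rose and 1 fell (median 0.03). Cd44, an adhesion receptor, read 12.31 and 12.23 in low and 10.97 and 10.58 in high switching subclones (-1.49 ± 0.15, 3 of 4 probe sets). S1pr1 and the cell cycle inhibitor Cdkn1a (1.60 ± 0.24) rose. Ccnd2, a D cyclin (-0.54 ± 0.13), and Id2, an inhibitor of E proteins (-0.78 ± 0.23), had limma adjusted p-values of 0.0904 and 0.148 on the probe sets that stand for them. For Ccnd2, 1 of 7 probe sets passed as lower. Batf (0.61 ± 0.15), Prdm1 (0.74 ± 0.20) and Myd88 (0.43 ± 0.13), of the same list, differed the other way. Their limma adjusted p-values were 0.0945, 0.119 and 0.154. The high switching subclones differed from each other on this list, with a median of -0.25 for replicate 2 minus replicate 1. The low switching subclones differed the other way, with a median of 0.14, beside -0.01 and 0.00 over all genes. Both medians were the largest in size among the lists read. In each class the lower array was the one with brighter hybridization controls, and the cause was not tested. With 1 array left out, Bank1 and Fndc3b kept their calls in 4 of 4 fits, Cd44 and Bst1 in 3, Cd47, Cdkn1a and S1pr1 in 1, and Cd79b, Tnfrsf17 and Hivep1 in none. With the control level as a block, Bank1 and Fndc3b were the only 2 of the 18 called relatives, targets and markers to pass.

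Of the markers of other cell types Itgam and Lum passed, beside 4.82% of all genes, and several of the markers were bright. Of 13 T cell markers 0 passed with limma, and 1 had an unadjusted p under 0.05. Of 14 myeloid markers Itgam fell (8.14 and 8.14 against 6.55 and 6.97), and of 12 fibroblast markers Lum rose, from 4.38 and 4.26 to 5.77 and 5.28. The log2 of the summed intensity of the myeloid list was 11.95 and 12.10 in low and 11.83 and 11.66 in high switching subclones, that of the T cell list 10.61 and 10.63 against 10.34 and 10.53, and that of the fibroblast list 8.60 and 8.60 against 8.78 and 8.73. On arrays a marker does not reach 0. Of the myeloid, T cell and fibroblast lists, 8, 4 and 5 members lay below the median probe set on all arrays and 5, 8 and 3 above it. Above it were Cebpb (10.63 to 11.47) and Cd68 (9.58 to 10.35) of the myeloid list, with differences of -0.65 (limma adjusted p = 0.0556) and 0.54 that did not pass, and Cd2 (8.71 to 9.49) and Zap70 (7.87 to 8.15) of the T cell list. Their part in the Bcl6 difference was not tested.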

How the data were processed

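Total RNA of each of 4 subclones went onto its own biotin-based Affymetrix array. The table the authors deposited holds linear intensities, and per the submitters' processing notes the authors used RMA (version, build and probe mapping not given in the sources used here). Log2 was taken first, 64 control probe sets of 45101 were left out, and no filter on level was applied. Symbols came from the platform annotation of 2016. Promoter windows are RefSeq's on GRCm38.p6, whose gene table also gave chromosomes and gene order.

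High minus low switching was fitted in R 4.3.3 with limma 3.58.1, using lmFit and eBayes (two-sided), over 45037 probe sets, adjusted by Benjamini-Hochberg, with a threshold of 0.05. On simulated data of this design the fit recovered 1.2% of changes of 0.5, 47.6% of 1 and 98% of 2 on the log2 scale, and 5.08% of its calls were false. The noise was drawn as limma's variance model assumes, so a false share near the threshold was built in. Changes were put only on probe sets with a mean log2 of at least 7, and on fewer probe sets than were called here. Most member probe sets, those of Bcl6 among them, lay below that level, so the recovery need not hold for them. The text names every member probe set, up to 4 genes past the threshold of each list, the 3 nearest profiles, the markers of the line and some further list members that did not pass, which were chosen after their values were seen. Members and lists were chosen with earlier results of these data known, so counts over them are descriptions. Alternatives covered the variance model, filters, normalization, probe set choice, an added constant of 16, the hybridization control level and each array left out. The number of arrays limits the precision. Motifs were searched in Python 3.11.15 and figures drawn with matplotlib 3.10.9.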

Additional observations from a re-analysis of the deposited data

How the results depend on the processing

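No paired analysis was made because the labels state no link between a low and a high switching subclone. Replicate numbers here follow the order of the samples. The number shared by L27 and H27 was taken as part of the clone names, not as a pairing. The count of fate factor probe sets called as higher, 2 with all arrays, was 1 without names ending in _x_at, _s_at or _a_at, 1 with 16 added before log2, 0 with the hybridization control level as a block, and 1 to 2 with an array left out. Over all probe sets, 674 higher and 944 lower became 58 and 94 with that block, and 112 to 253 and 196 to 329 with an array left out, where fewer degrees of freedom remain. Of 297 member values under the alternatives, 262 kept direction and side of the threshold, 6 lost a call (all Bcl6), 3 gained one (Ikzf3) and 26 turned sign, none of them called.

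Signs turned only for differences near 0 or with an array left out. Quantile normalization again, cyclic loess and centring on the median gave -0.0188, -0.0426 and -0.0198 for Pax5 1454401_at, -0.0101, -0.0201 and -0.0045 for Pax5 1421765_at and -0.0113, -0.0274 and -0.0148 for Bach2 1445460_at, and 16 added gave -0.0002 for Pax5 1454401_at. With an array left out, Irf4 ranged from -0.14 to 0.20 (1421173_at) and -0.182 to 0.0625 (1421174_at), Pax5 from -0.18 to 0.18 and -0.0786 to 0.114, Bach2 from -0.088 to 0.102 (1445460_at) and -0.0365 to 0.191 (1436515_at), Spib from -0.43 to 0.19, Ebf1 from -0.12 to 1.19 (1416301_a_at), -0.28 to 0.81 (1448293_at) and -0.0163 to 0.819 (1439789_at), and Ikzf3 1453378_at from -0.31 to 0.16. Of the 18 related genes called, the block ended 16 calls, the exceptions being Bank1 and Fndc3b, and 16 added ended 9. Each class holds an array of either control level, so the block left the differences unchanged and fewer degrees of freedom. For Bcl6 1421818_at the difference was 1.436 with and without it. Why calls ended was not tested. Low signal limits what could be detected on probe sets near or below the median probe set, those of Pax5, Irf8, Bach2 and Spib, Ebf1 1457441_at, Ikzf3 1453378_at and Bcl6 1450381_a_at.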
